A study of Mus musculus with 3 samples.

Results

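The genes described here are 9 members of the bone morphogenetic protein (BMP) and SMAD signalling pathway, namely Smad7, Smad6, Smad1, Smad5, Bmp4, Bambi, Id1, Id2 and Id3, and the peaks of the ETO2 protein around them. Smad7 was selected on the number of ETO2 regions nearest to it, which was 10, and the other genes were set beside it as relatives, partners or targets, so the number and position of peaks are given as a description, without a test. A gene was given every peak whose summit fell between its ends or no more than 100 kb outside them, and every peak for which it had the nearest protein-coding start site. By this rule 23 of 2335 peaks of replicate 1 and 26 of 1873 peaks of replicate 2 were linked, which together formed 29 regions (0.905%) of the series list. That list holds 1016 regions called in both replicates, 1332 in replicate 1 only and 858 in replicate 2 only. Of the 9 genes, 8 had at least 1 linked region and Id2 had none.

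ETO2 is a co-repressor protein that joins the SCL transcription complex of blood cells, and its sites on chromatin were mapped in early mesoderm. Wild type mouse embryonic stem (ES) cells of mixed C57Bl/6 X Sv129 background were grown as embryoid bodies, from which FLK1+ cells, a mesoderm with blood and vessel potential, came at day 4 according to the sample labels (day 3.5 in the series design). There were 2 chromatin immunoprecipitations (ChIP) with an antibody against ETO2, from separate differentiations according to the series design, and 1 input, whose reads were not analysed here. The deposited names of both peak lists carry the same ChIP number, so how independent the replicates are, and with it what a call in both means, rests on the labels. The lists did not hold the same fragment counts at their shared regions, where these were equal in 3.35% of 1016 pairs and varied more than counting error allows (chi-square per degree of freedom 2.15). Peaks of replicate 1 were called against the input and those of replicate 2 without one, so their fold enrichments rest on different backgrounds. Both ChIP samples share genotype, strain and stage, and no sample lacking ETO2 was analysed here. RNA was not measured in these samples, so the labelled cell type could not be checked against its markers.

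BMP ligands such as Bmp4 bind pairs of receptors at the cell surface, which phosphorylate the activating Smads (Smad1 and Smad5). These enter the nucleus and switch on targets, among which the Id genes, encoding inhibitors of basic helix-loop-helix factors, respond quickly. Smad6 and Smad7 are the inhibitory Smads, which block the receptors and are themselves induced by the signal, and Bambi is a pseudoreceptor that lacks the kinase. In the embryo BMP signalling directs posterior mesoderm, from which blood and vessels arise.

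SCL complexes are known to contact a GATA motif and an E-box half-site. The windows below come from 9 regions of Smad6, Smad1, Bmp4, Id1 and Id3 that were called in both replicates. They show where a GATA motif, or a CTG paired with GATA, lay or was missing. Each is 100 bp long, centred on the summit, read on the plus strand of mm9, and named by the distance of the summit from the first base of the gene (minus is upstream). Capitals mark a GATA motif (the letters AGATAA or AGATAG, or the same letters with a T in first place, on either strand) or the CTG and GATA of a pair separated by 8 to 10 bases on the same strand. On the other strand these elements appear as their reverse complement, read backwards with A and T exchanged and C and G exchanged. AGATAA thus appears as TTATCT, and a pair starts with TATC and ends with CAG. An E-box (CANNTG), or a CTG outside such a pair, is not marked as such.
Smad6 -23.2 kb (chr9:63893035-63893134): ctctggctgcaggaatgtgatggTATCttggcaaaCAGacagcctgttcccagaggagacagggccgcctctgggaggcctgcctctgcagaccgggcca
Smad6 -38.4 kb (chr9:63908201-63908300): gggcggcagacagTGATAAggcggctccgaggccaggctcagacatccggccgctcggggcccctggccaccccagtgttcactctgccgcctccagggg
Smad6 -56.4 kb (chr9:63926255-63926354): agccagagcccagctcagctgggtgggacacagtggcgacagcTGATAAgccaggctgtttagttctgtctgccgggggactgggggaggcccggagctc
Smad6 -92.9 kb (chr9:63962692-63962791): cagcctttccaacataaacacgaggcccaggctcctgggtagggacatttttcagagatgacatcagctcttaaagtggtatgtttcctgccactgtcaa
Smad6 80.1 kb (chr9:63789706-63789805): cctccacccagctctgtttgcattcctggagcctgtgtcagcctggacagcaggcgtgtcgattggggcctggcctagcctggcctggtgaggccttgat
Smad1 18.9 kb (chr8:81904461-81904560): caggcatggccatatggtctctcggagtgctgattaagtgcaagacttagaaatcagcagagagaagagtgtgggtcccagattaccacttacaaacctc
Bmp4 -183 kb (chr14:47193228-47193327): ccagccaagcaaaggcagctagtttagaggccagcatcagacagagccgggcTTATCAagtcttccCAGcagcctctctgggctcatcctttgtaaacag
Id1 53.1 kb (chr2:152615001-152615100): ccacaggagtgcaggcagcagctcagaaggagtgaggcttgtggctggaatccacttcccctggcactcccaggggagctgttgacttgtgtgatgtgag
Id3 -38.7 kb (chr4:135660699-135660798): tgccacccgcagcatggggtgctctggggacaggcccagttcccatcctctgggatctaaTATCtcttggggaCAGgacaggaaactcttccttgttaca

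The windows differed in what they held. That of the strongest peak, at Smad6 -23.2 kb, had a pair with 8 bases between CTG and GATA but no complete GATA motif, and Id3 -38.7 kb likewise had a pair, with 9 bases between, without the motif. Bmp4 -183 kb held both, with 9 bases between CTG and GATA and with the GATA motif itself as the second element. In Smad6 -38.4 kb and Smad6 -56.4 kb there was a motif and no pair. The other 4 windows, Smad6 -92.9 kb, Smad6 80.1 kb, Smad1 18.9 kb and Id1 53.1 kb, held neither. A further Id1 region called in both replicates, at 53.5 kb, is not among the windows shown, and it had a GATA motif and no pair. A match of this kind describes the letters in the window and does not show that a factor sat there.

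Smad7, on chromosome 18 (75527183 to 75555589, plus strand), was surrounded by ETO2 regions but held none in its 28.4 kb. All 10 regions were nearest to Smad7 among protein-coding genes, and they spanned 241 kb. Upstream there were 7, at distances of 36.5 to 105 kb from the first base, and downstream there were 3, at 94.3, 99.3 and 107 kb beyond the gene end. Between the closest upstream and the closest downstream region, 159 kb that include the Smad7 promoter and gene body had no region. The farthest upstream region lay in an intron of Dym, the next 6 were intergenic, and the 3 downstream regions lay in introns of Ctif, whose own start is on the far side.

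**Figure D1:**
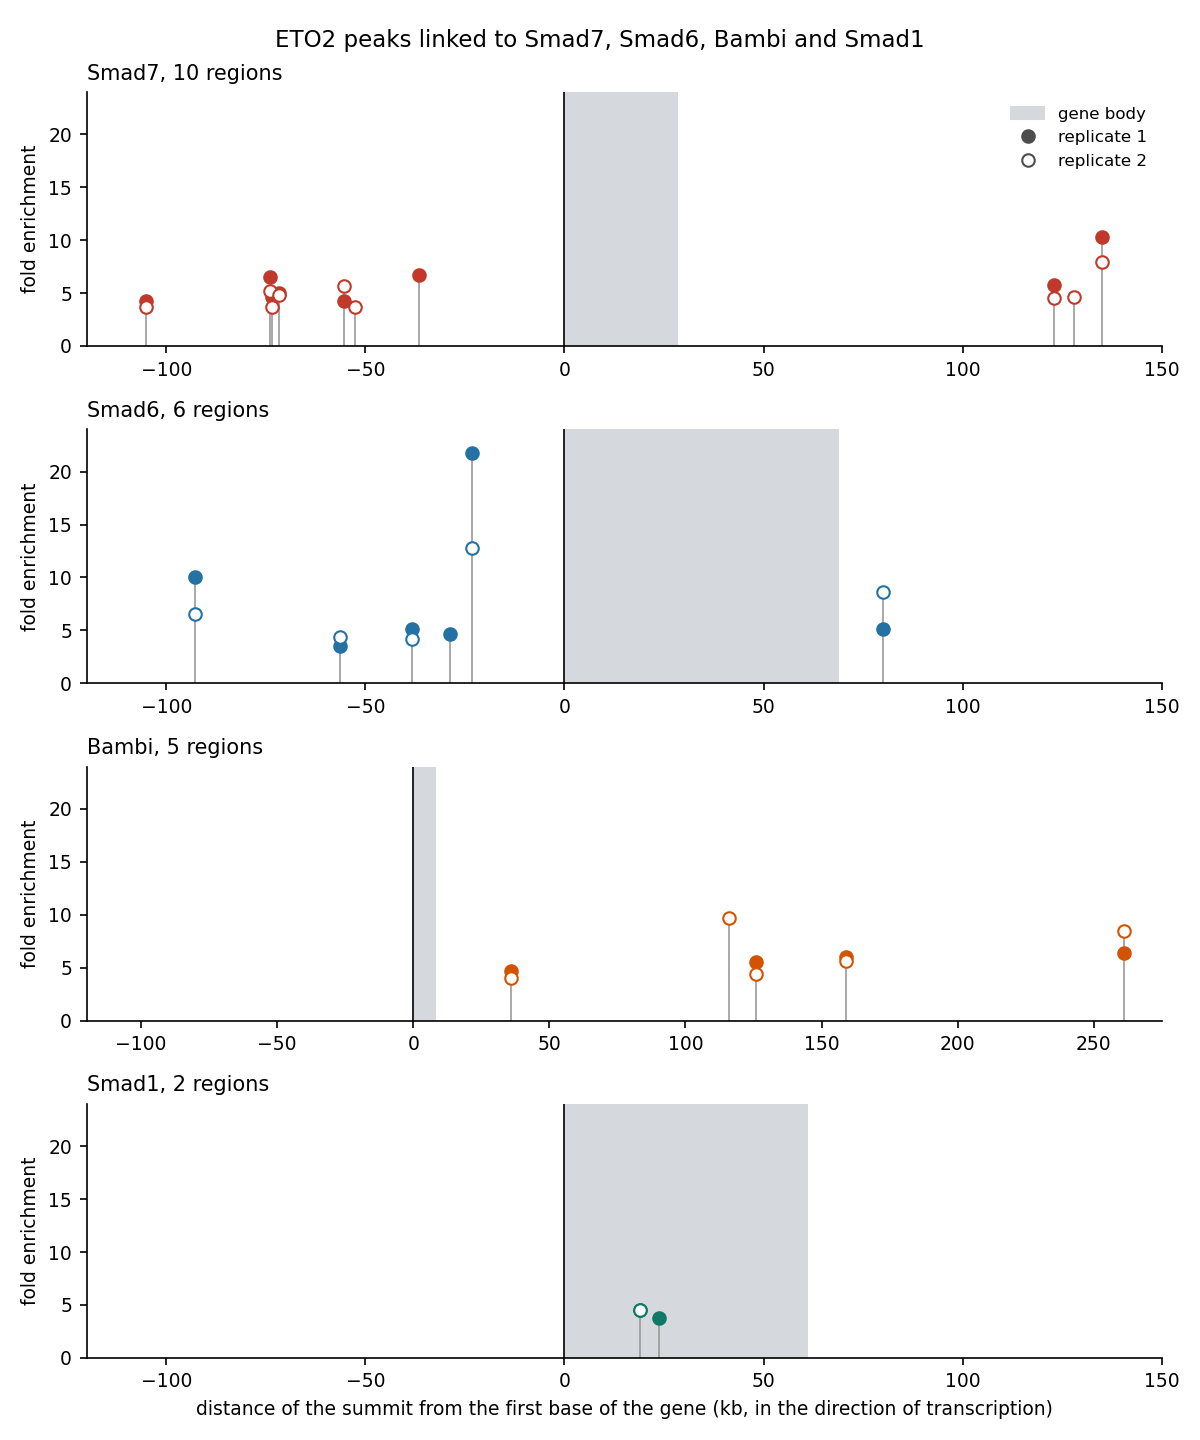
Fold enrichment at the summit (vertical axis) against the distance of the summit from the first base of the gene (kb, in the direction of transcription) for the peaks linked to Smad7, Smad6, Bambi and Smad1, with filled points for replicate 1, open points for replicate 2, grey for the gene body and a wider horizontal range for Bambi. The Smad7 regions sit on both sides of an empty 159 kb that holds the gene, the Smad6 peak 23.2 kb upstream reaches 21.8 and 12.8, all Bambi regions lie downstream and both Smad1 regions lie inside the gene.

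Of the 10 Smad7 regions, 7 were called in both replicates, 1 in replicate 1 only and 2 in replicate 2 only. Over the whole list 31.7% of regions were called in both. The fold enrichment compares the fragments at the summit with the local background, after adding 1 to each, and it was 4.21 to 10.3 in the 8 peaks of replicate 1 (median 5.36) and 3.66 to 7.91 in the 9 peaks of replicate 2 (median 4.6). Counts of fragments over the summit, recovered from the deposited values, were 20 to 46 in replicate 1 and 23 to 69 in replicate 2. Over all peaks the median fold enrichment was 5.24 in replicate 1 and 4.85 in replicate 2, so the Smad7 medians lay close to these. Among the 7 regions called in both, 6 had a lower fold enrichment in replicate 1 than the median of all such regions (6.83), and 5 did so in replicate 2 (median 5.36).

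The strongest Smad7 region was the farthest downstream, 107 kb beyond the gene end in a Ctif intron (75662512 to 75662995). It had fold enrichments of 10.3 and 7.91, with 46 fragments in replicate 1 (95% Poisson interval 33.7 to 61.4) and 69 in replicate 2 (53.7 to 87.3), and ranked 225 of 2335 and 197 of 1873 by fold enrichment. Its neighbour 94.3 kb beyond the end had 5.76 and 4.52, with 25 and 30 fragments. Between them a region 99.3 kb beyond the end was called in replicate 2 only, with a fold enrichment of 4.6 and 33 fragments. These 3 regions formed a group of their own, with 5.01 and 7.74 kb from summit to summit.

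Upstream of Smad7, 3 regions lay close together. Their summits, 73.9, 73.5 and 71.8 kb upstream, were 0.413 and 1.72 kb apart, and each was called in both replicates. Fold enrichments were 6.55 and 5.23 at the first of these, 4.64 and 3.7 at the second, and 4.97 and 4.81 at the third, in replicate 1 and replicate 2. With 20 to 29 fragments in replicate 1 and 27 to 38 in replicate 2, the intervals of the 3 overlapped within each replicate, so their order was not resolved at this depth. At the third, the summits of the replicates were 153 bp apart, against a median of 26 bp over all regions called in both.

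The remaining upstream regions of Smad7 were single ones. At 105 kb upstream, in the Dym intron, fold enrichments were 4.21 and 3.67 with 27 and 26 fragments. At 55.3 kb upstream they were 4.29 and 5.65 with 28 and 34 fragments, whose intervals overlapped (18.6 to 40.5 and 23.5 to 47.5). These 2 regions were called in both replicates. The region closest to the gene, 36.5 kb upstream, was called in replicate 1 only, with a fold enrichment of 6.73 and 25 fragments (16.2 to 36.9), and the region 52.6 kb upstream in replicate 2 only, with 3.66 and 23 fragments (14.6 to 34.5). A replicate without a call has no value in its peak list, so the signal there was not known.

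The link of these regions to Smad7 rests on the set of start sites. With start sites of genes of all types in place of protein-coding ones, none of the 10 regions was nearest to Smad7. The 7 upstream regions were then nearest to RP24-263P17.1, a processed transcript whose start lies next to that of Smad7 (36 kb instead of 36.5 kb from the closest region), and the 3 downstream regions to Gm10532, a lincRNA 11.6 to 24.4 kb from their summits. Only 1 region lay within 50 kb of a Smad7 start site. Of the 10 regions, 5 remained with a fold enrichment of at least 5, and 9 or 8 with replicate 1 or replicate 2 left out.

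Smad7 had been chosen for the number of its regions, so its place among all genes restates that choice and is given as a description. Of 22225 protein-coding genes, 9.6% were nearest to at least 1 region and 3.74% to at least 1 called in both replicates. No other gene had as many as 7 regions called in both. There were 11 genes with at least 10 regions, and in 8 of them at most 1 region lay in sequence where most 24-mers occur once in the genome (at least 80% of them). The other 3 were Smad7, Runx1 and Gse1, each with 10 of 10 regions in such unique sequence. The genes most like Smad7, by the sum of the differences in regions and in regions called in both, were Runx1 (10 and 6), Gse1 (10 and 5), Cbfa2t3 (7 and 6), Cited2 (6 and 5) and Dusp4 (8 and 3). Runx1 encodes a blood transcription factor and Cbfa2t3 encodes ETO2 itself.

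**Figure D2:**
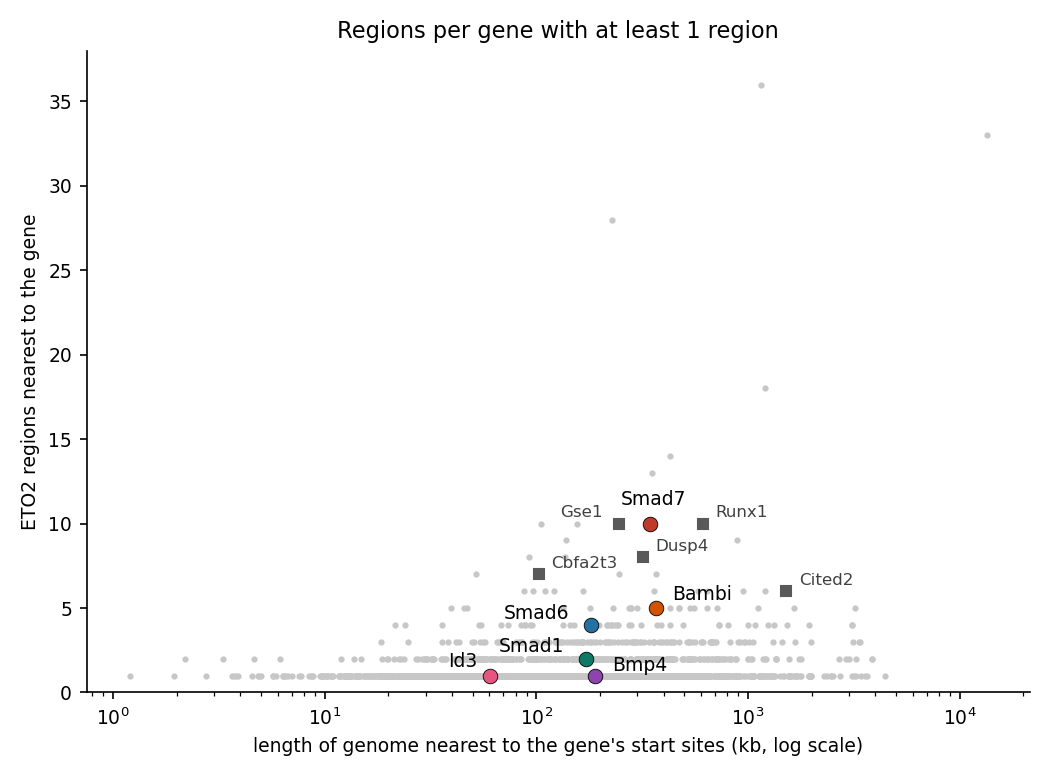
Number of ETO2 regions nearest to a gene (vertical axis) against the length of genome nearest to its start sites (kb, log scale) for protein-coding genes with at least 1 region, with coloured circles for members, dark squares for the 5 genes most like Smad7 and grey points for the rest. Smad7 has 10 regions in 343 kb, and the 6 genes above it have at most 1 region in unique sequence.

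The stretch of genome nearest to Smad7 start sites was 343 kb long, compared with a median of 45.7 kb over all protein-coding genes, and a long stretch can collect more regions. Per 100 kb it held 2.91 regions, compared with 0.121 over the genome, a density that also reflects the choice of Smad7 for its regions. The like genes had 4.07 (Gse1), 1.64 (Runx1), 6.82 (Cbfa2t3), 0.395 (Cited2) and 2.51 (Dusp4). The closest region lay nearer to a start site in each of them than at Smad7, and the distances of their other regions were not compared. The closest Smad7 region was 36.5 kb away, whereas the closest ones of Runx1, Gse1, Cbfa2t3, Cited2 and Dusp4 were at 3.64, 1.63, 0.197, 0.097 and 8.13 kb.

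Smad6, the other inhibitory Smad, lies on chromosome 9 (63800953 to 63869866, minus strand) and had 6 linked regions, none inside the gene. It was the nearest protein-coding gene to 4, and the other 2, at 56.4 and 92.9 kb upstream, were nearest to Lctl. Of the 6, 5 were called in both replicates. Smad6 carried the strongest peak of all members. This region, 23.2 kb upstream (63892909 to 63893297), had fold enrichments of 21.8 and 12.8, with 130 fragments in replicate 1 (109 to 154) and 118 in replicate 2 (97.7 to 141). It ranked 14 of 2335 and 25 of 1873, and was in place 7 of the 1016 regions called in both by mean rank. The intervals did not overlap those of any other linked region in either replicate.

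The other Smad6 regions were weaker than this peak and differed in strength. At 28.7 kb upstream, in an intron of the lincRNA gene 1110036E04Rik, a region was called in replicate 1 only, with a fold enrichment of 4.61 and 35 fragments. At 38.4 kb upstream both replicates had a call, with 5.16 and 4.19 from 34 and 25 fragments. At 56.4 kb upstream the values were 3.51 and 4.39 from 28 fragments in each, with a low place in replicate 1 (2117 of 2335 by fold enrichment). The most distant region, 92.9 kb upstream and 2.21 kb from a start site of Lctl, was the second strongest in replicate 1, with 10 and 6.52 from 37 and 41 fragments (245 of 2335 and 400 of 1873 by fold enrichment).

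Beyond the 3′ end of Smad6, 11.2 kb from it, 1 region differed between the replicates (63789672 to 63789900). It had 30 fragments in replicate 1 (20.2 to 42.8) and 61 in replicate 2 (46.7 to 78.4), intervals that did not overlap, and fold enrichments of 5.16 and 8.6. The ratio of replicate 2 to replicate 1 fragments, 2.03, was the highest among the 21 linked regions called in both and above the 95th percentile over all such regions (1.68). Over all of them the median ratio was 1, and over the linked ones 1.11. The intervals cover counting error only.

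**Figure D3:**
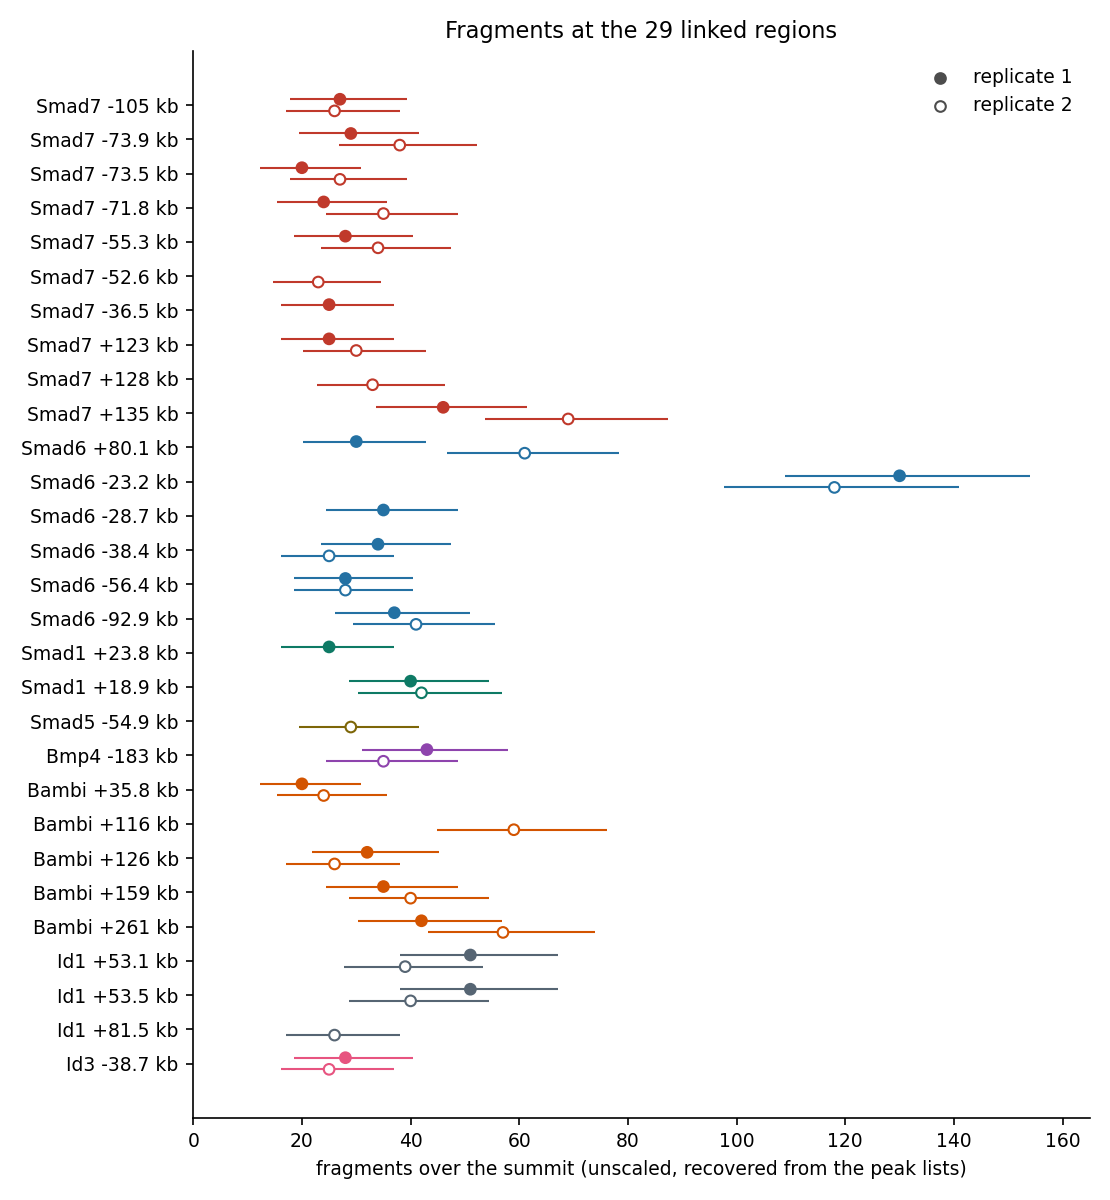
Fragments over the summit, unscaled (horizontal axis), at each of the 29 linked regions, which are named by gene and distance of the summit from its first base in kb, with filled points for replicate 1, open points for replicate 2 and bars for 95% Poisson intervals, which cover counting error only. Smad6 -23.2 kb stands alone at 130 and 118 fragments, and the other points lie between 20 and 69.

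Among the activating Smads, Smad1 held both of its regions in its own introns, on chromosome 8 (gene 81862294 to 81923417, minus strand). The region 18.9 kb from the first base (81904398 to 81904618) was called in both replicates, with fold enrichments of 4.56 and 4.55 from 40 and 42 fragments. That 23.8 kb from it (81899514 to 81899835) was called in replicate 1 only, with 3.74 from 25 fragments. The fold enrichments were modest although the fragment counts of the first were above the median of all peaks, 27 in replicate 1 and 35 in replicate 2. The local background was 11 and 8.45 there, compared with medians of 6 and 5.6 over all peaks and of 8 and 8.14 over the peaks of chromosome 8. With a fold enrichment of at least 5, Smad1 had no region.

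Smad5 had 1 linked region, 54.9 kb upstream (chromosome 13, 56749423 to 56749598). It was called in replicate 2 only, with a fold enrichment of 4.85 from 29 fragments (19.4 to 41.6), and its nearest protein-coding start site, 38.5 kb away, was that of Tgfbi, which encodes an extracellular matrix protein induced by TGF-beta. No region of the series list had a Smad5 start site as its nearest, and replicate 1 had no linked peak.

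Bmp4, the ligand, had 1 region, and it was remote. It lay 183 kb upstream (chromosome 14, 47193099 to 47193414) in an intron of the processed transcript gene Gm15219, 2.25 kb from a start of that gene. Fold enrichments were 8.39 and 5.82 from 43 and 35 fragments, both above the medians of all regions called in both replicates (6.83 and 5.36). No peak lay in the Bmp4 gene or within 100 kb of it, so the region was linked only by the nearest protein-coding start site. A peak 188 kb from Bmp4 was the first beyond, with a replicate 1 fold enrichment of 7.62, and fell to Cdkn3. That gene lies 370 kb from Bmp4, so the Bmp4 region was close to the middle between both genes.

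Bambi, the pseudoreceptor, lies on chromosome 18 (3507955 to 3516402, plus strand) and was nearest to 5 regions, all downstream, at 27.3, 107, 117, 150 and 252 kb beyond the gene end. Of these, 4 were called in both replicates. Fold enrichments at the 4 were 4.64 and 4.04 at 27.3 kb, 5.49 and 4.36 at 117 kb, 6 and 5.65 at 150 kb, and 6.37 and 8.47 at 252 kb. The fold enrichment was thus highest at the most distant of them in either replicate, although in replicate 1 the fragment intervals of that region (30.3 to 56.8) and of the closest (12.2 to 30.9) just overlapped. The region at 107 kb was called in replicate 2 only, with the highest fold enrichment of the gene, 9.69 from 59 fragments, and only 26% of the 24-mers in its window occurred once in the genome. At 27.3 kb that share was 31.2%, while the other 3 windows were unique throughout. Over the series list 79.8% of regions lay in unique sequence, as did 27 of the 29 linked ones.

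The Id genes differed from each other. Id1 was the nearest gene of no region but had 3 within 100 kb, all in introns of Bcl2l1, which encodes an inhibitor of apoptosis, and nearest to start sites of Cox4i2 or Bcl2l1. A single replicate 1 peak (chromosome 2, 152614901 to 152615656), with a fold enrichment of 6.94 from 51 fragments, overlapped 2 replicate 2 peaks, 51.9 and 52.3 kb beyond the Id1 gene end, with 4.77 and 4.94 from 39 and 40 fragments. In the series list these counted as 2 regions. The other, 80.3 kb beyond the end, was called in replicate 2 only, with 3.41 from 26 fragments.

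Id3 had 1 region, 38.7 kb upstream (chromosome 4, 135660611 to 135660786), called in both replicates with fold enrichments of 5.3 and 4.2 from 28 and 25 fragments. Id2 had no linked peak in either replicate, and the closest peak, 349 kb away with a fold enrichment of 4.71, was nearest to Rrm2. The stretch of genome nearest to Id2 start sites was the longest of the members, at 720 kb, and those of Id1 and Id3 were 31.2 and 60.2 kb long.

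Most regions linked to the members were called in both replicates. Of the 23 linked peaks of replicate 1, 20 overlapped a replicate 2 peak by at least 1 bp (87%, 95% Wilson interval 67.9 to 95.5), compared with 43% of all replicate 1 peaks. In the other direction 21 of 26 did (80.8%, 62.1 to 91.5), compared with 54.2% of all replicate 2 peaks. By region it was 21 of 29 (72.4%, 54.3 to 85.3), compared with 31.7%. Smad7 was chosen for its number of regions, and the other members with earlier results of these data known. Of the linked regions 93.1% lay in unique sequence, compared with 79.8% of all. The shares called in both are therefore a description, and the part of the choice and of unique sequence in them was not tested. The fold enrichments of the linked regions called in both were not high, with medians of 5.49 and 4.81, compared with 6.83 and 5.36 over all such regions.

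**Figure D4:**
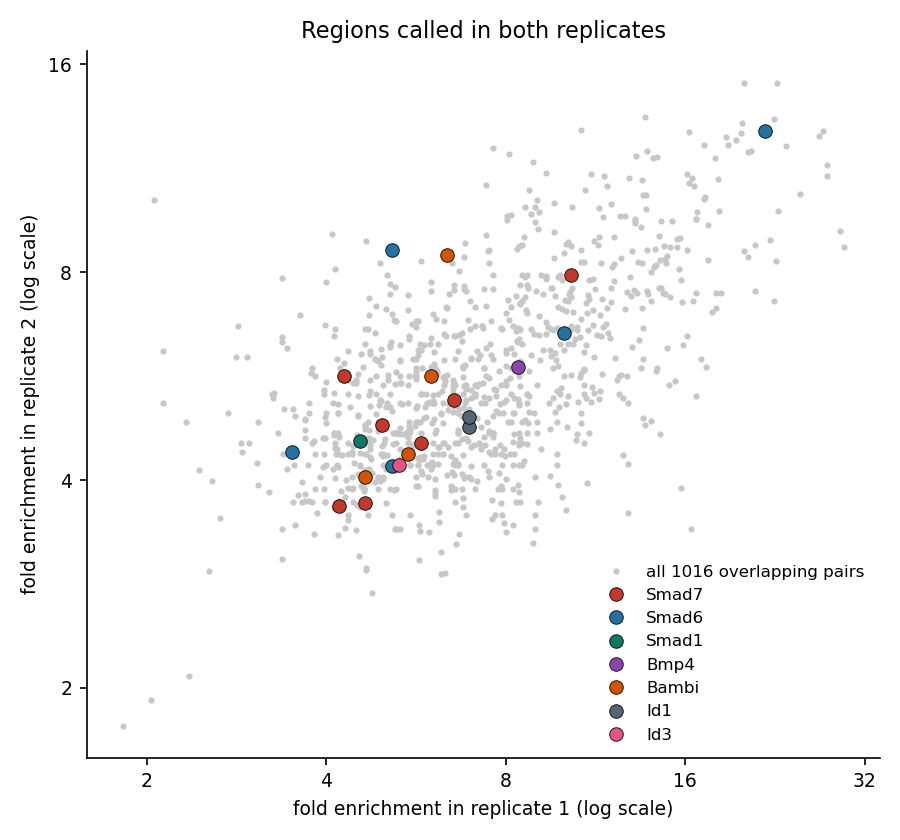
Fold enrichment in replicate 2 against that in replicate 1 (both axes on a log scale) for the 1016 overlapping pairs of peaks, in grey, with the 21 pairs linked to members coloured by gene. Most member pairs sit in the lower part of the cloud, and the Smad6 pair at 21.8 and 12.8 sits near its upper end.

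None of the 29 linked summits lay within 1 kb of a protein-coding start site, a count of 0 that allows a share of up to 10.3% (3 counts of 29), or 11.7% by the Wilson interval. Over all regions the share was 11.5%, between these limits, so a difference was not resolved with 29 regions. The linked summits were intergenic in 18 cases and intronic in 11, and none was in an exon. Their median distance to the nearest protein-coding start site was 52.6 kb, compared with 23.2 kb over all regions. Smad7 supplied 10 of the 29 summits and lies in a long stretch with few start sites, and the part of this choice in the distances was not tested.

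GATA motifs were found in 16 of the 29 linked summit windows (55.2%, 37.5 to 71.6), close to the 54.3% over all regions, and in 19% of the windows of the same length 500 bp to each side. Among linked regions called in both replicates the share was 52.4% (11 of 21, 32.4 to 71.7), compared with 72.6% of all regions called in both. At Smad7 7 of 10 windows held the motif, at Smad6 3 of 6, at Bambi 3 of 5, at Id1 2 of 3, at Bmp4 1 of 1, and at Smad1, Smad5 and Id3 none. In windows of 200 bp the share was 82.8%, compared with 70.9% of all regions and 89.9% of those called in both replicates. The share thus depended on the width of the window.

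A CTG-GATA pair with 8 to 10 bases between was in 10 of the 29 windows (34.5%, 19.9 to 52.7). The share was 24.1% over all regions, 36.6% over all regions called in both and 3.45% over the linked flanks. Among linked regions called in both it was 33.3% (7 of 21, 17.2 to 54.6). Of the 10 windows with a pair, Smad7 had 6, among them its strongest region, with 9 bases between. The others were the strongest Smad6 region and those of Bmp4, Id1 (81.5 kb) and Id3. No Bambi window held a pair. Either the motif or the pair was in 8 of 10 Smad7 windows and 19 of the 29 linked windows (65.5%, 47.3 to 80.1). The share was 57.2% over all regions and 76.8% over all regions called in both.

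The SMAD box CAGAC is the short sequence that DNA-binding Smads contact, and 14 of the 29 linked windows held it (48.3%, 31.4 to 65.6). The share was 29.6% over all regions, 34.9% over all regions called in both and 15.5% over the linked flanks. Among linked regions called in both, 10 of 21 held the SMAD box (47.6%, 28.3 to 67.6), an interval that includes 34.9%. It was found in 5 of 10 Smad7, 4 of 6 Smad6 and 3 of 5 Bambi windows, in those of Smad5 and Bmp4, and in none of Smad1, Id1 or Id3. In 2 of the 14 windows it overlapped a CTG-GATA pair, as at Smad6 -23.2 kb in the sequence shown. The second SMAD sequence, GGCGCC, was in no linked window and in 1.47% of all regions. The ETS core AGGAA was in 62.1% of linked windows (44 to 77.3), 41.6% of all, 46.5% of all called in both and 34.5% of linked flanks. For the E-box CANNTG these shares were 34.5% (19.9 to 52.7), 45.1%, 47.9% and 46.6%, and for its form CAGCTG 3.45%, 11.5%, 14.6% and 6.9%. The CANNTG interval of the linked windows included the share of their flanks, so that difference was not resolved with 29 windows. Among linked regions called in both, AGGAA was in 57.1% (12 of 21, 36.5 to 75.5) and CANNTG in 33.3% (7 of 21, 17.2 to 54.6). All sequences were searched on both strands, and CAGCTG is one form of CANNTG. With 7 sequences counted over 29 windows, these shares are values and not tests.

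**Figure D5:**
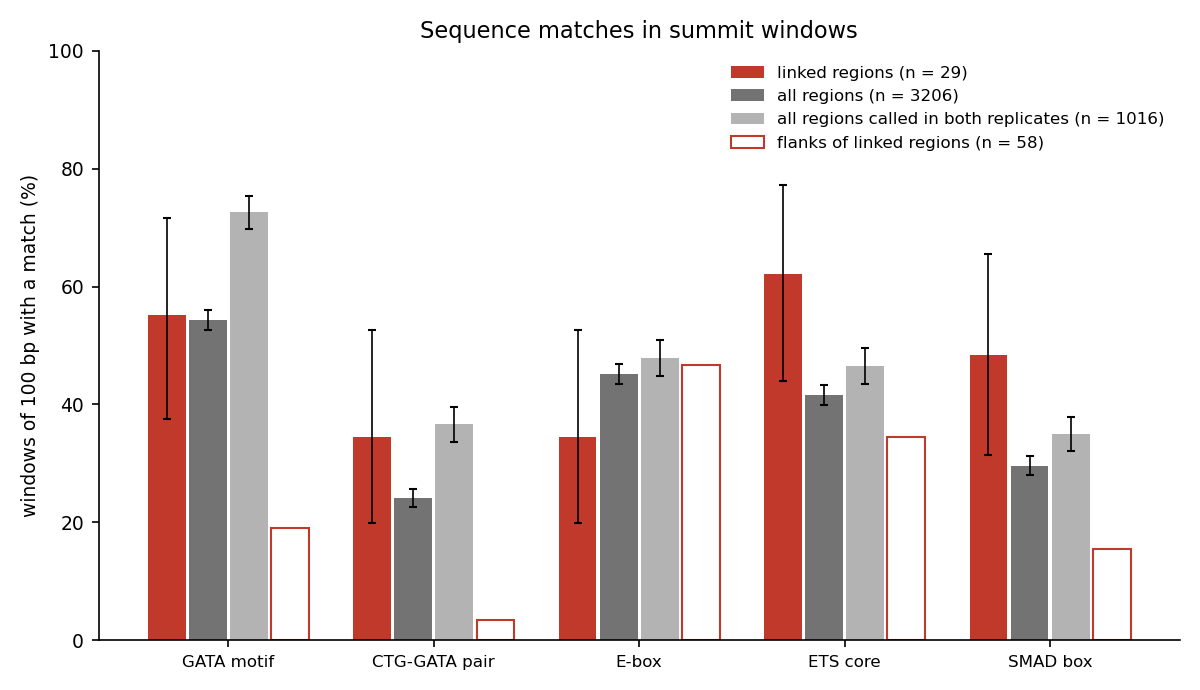
Share of 100 bp windows with at least 1 match (vertical axis, %) for the GATA motif, the CTG-GATA pair, the E-box, the ETS core and the SMAD box in linked regions (red), all regions (dark grey), all regions called in both replicates (light grey) and the 58 flanking windows of linked regions (open bars), with 95% Wilson intervals on the filled bars. The GATA motif is in 55.2% of linked and 54.3% of all windows, and the SMAD box in 48.3% and 29.6%.

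Beyond the 9 members, a list of 91 further genes of BMP and TGF-beta signalling was examined. It was chosen with earlier results of these data known, so its shares are a description. Of these, 24 (26.4%, 18.4 to 36.3) were nearest to at least 1 region, compared with 9.6% of all protein-coding genes, and 12 (13.2%) to at least 1 called in both replicates, compared with 3.74%. The stretches of genome nearest to their start sites were longer, with a median of 121 kb compared with 45.7 kb over all genes. The part of this, and of the choice of the list, in the counts was not tested. Target genes had a region in 9 of 18 cases, receptors and co-receptors in 5 of 15, other Smads in 2 of 4 and intracellular regulators in 4 of 18. Among ligands it was 2 of 19 (10.5%, 2.94 to 31.4) and among secreted antagonists 2 of 17 (11.8%, 3.29 to 34.3), and the intervals of the roles overlapped. The count was 14 without replicate 1 and 22 without replicate 2.

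The strongest region called in both replicates among these genes was in an intron of Zfp423, whose zinc finger protein partners Smads in BMP signalling (chromosome 8, 90357156 to 90357603). It had fold enrichments of 19.9 and 12.7 from 162 and 189 fragments. Next came a region 122 kb from Bmp2, a ligand (chromosome 2, 133255496 to 133255737), with 15.4 and 5.57, and one 2.94 kb from Msx1, a homeobox target gene (chromosome 5, 38218659 to 38218861), with 11.1 and 5.45. The region of Hey2, a basic helix-loop-helix repressor, lay 226 kb from its start and had 9.58 and 5.82. That of Fstl1, which encodes a secreted follistatin-like protein, lay 22.7 kb away and had 8.62 and 4.89. Those of Tbx20, a T-box factor of the heart (7.27 and 4.77, at 74.2 kb), and Gata2, a blood transcription factor (7.21 and 4.52, at 4.51 kb), followed. Last came that of Acvrl1, a type I receptor of endothelial cells (6.65 and 5.01, at 10.5 kb). These 8 were ranked by replicate 1, which favours regions higher there. Of the other 4 genes with a region called in both, Smad3 had 6.08 and 3.79 and Tab1 3.69 and 3.82, while Tbx3 (4.14 and 8.08) and Bmpr1a (4.17 and 5.98) were higher in replicate 2. These 4 were named after their values were seen. By replicate 1 the Smad6 peak 23.2 kb upstream, with 21.8, would stand ahead of all 8.

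The limit of 100 kb alone linked 6 of the 29 regions and 9 of the 49 peaks, among them every region of Smad5 and Id1, and without it the members with a region fell from 8 to 6. The linked region nearest to the limit that depended on it was that of Smad6 at 92.9 kb (10 and 6.52), and the first unlinked peak beyond was 188 kb from Bmp4. Limits of 20 or 50 kb, with nearest genes kept, each gave 40 linked peaks instead of 49, losing the regions nearest to Lctl, Tgfbi, Cox4i2 and Bcl2l1.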

How the data were processed

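ETO2 ChIP-seq was analysed in 2 replicates of FLK1+ mesoderm, from the peak lists of the authors. Reads had been trimmed (Trim Galore), aligned to mm9 (Bowtie) and peaks called by the authors with MACS2 2.0.10, in replicate 1 against the input and in replicate 2 without one. Read totals were not used, and depth enters as fragments at the summit.

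For each deposited peak the authors' MACS2 run gave an integer score derived from the q-value. It also gave the fold enrichment as deposited, a ratio of ChIP fragments over the summit, scaled between libraries, to the expected background, with 1 added to each. The p-value and q-value were deposited as −log10. A further deposited list of 3206 positions had the same coordinates as the overlaps of both lists plus the peaks of either alone, and its making was not stated.

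Whole fragments and background at each summit were solved from fold enrichment and −log10 p with a Poisson model, which matched 100% of peaks in both lists within 0.005. This solution was also tested on simulated lists. Replicate 1 fragments had been scaled by 1.342 to its input, and background is on that scale.

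Nearest start sites came from GENCODE annotation of mm9, for the middle of a region (counts per gene) or for the summit (links). Coordinates count from 1. Summit windows follow replicate 1 where it has a peak, and replicate 2 for a second region of the same replicate 1 peak. Shares have 95% Wilson intervals and fragments exact Poisson intervals, which cover counting error only, and no group test was run, since only the ETO2 ChIP group has peak lists. The members and gene lists were chosen with earlier results of these data known. The genes and peaks named were all members, their peaks by nearest start site or by calls in both replicates, the 5 genes closest to Smad7 in region counts, and the 8 other pathway genes of highest replicate 1 fold enrichment among regions called in both. Alternatives covered the linking distance, start sites, peak thresholds, overlap rule, window and leaving out either replicate. Sequence of some windows is not reported here. Python 3.11.15, pandas 2.3.3, SciPy 1.17.1 and pysam 0.24.0 were used.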

Additional observations from a re-analysis of the deposited data

How the results depend on the processing

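No paired analysis was possible because only the ETO2 ChIP group has peak lists and no groups were compared. Of 62 alternatives, 44 left a count within 1.5 times its main value, or a share within its 95% interval, and 18 moved it. With start sites of genes of all types, the regions nearest to Smad7 fell from 10 to 0, those of Smad6 from 4 to 1 and those of the other members (Smad5, Bmp4, Bambi and the Id genes) from 7 to 3. Within 50 kb of a start site, 1 region was left for Smad7, 2 for the other members and 15 of 24 pathway genes. With a fold enrichment of at least 5, 24 of 49 linked peaks, 5 Smad7 regions, 0 Smad1 regions and 15 pathway genes were left. Among regions called in both replicates, Smad1 had 1 and 12 pathway genes had at least 1. An overlap of at least 50% of both peaks gave 61.5% for linked replicate 2 peaks also called in replicate 1, instead of 80.8%, and 200 bp windows 82.8% with a GATA motif instead of 55.2%. Leaving out one replicate gave 23 to 26 linked peaks, 8 to 9 regions for Smad7, 3 to 4 for Smad6, 1 to 2 for Smad1 and 6 to 7 for the other members, 14 to 22 pathway genes and a GATA share of 52.2% to 53.8%. By construction, thresholds, calls in both and a single replicate keep fewer peaks, genes of all types add start sites, and the wider window adds bases. Peaks with few fragments limit the order of single regions, and a region without a call in 1 replicate has no value there.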
